A study of Mus musculus with 2 samples.

Results

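A group of 10 mechanosensing genes was followed in the fetal mouse mandible with and without skeletal muscle: the coactivators Yap1 and Wwtr1, the DNA-binding factors Tead1 to Tead4, the secreted target genes Ccn1 and Ccn2, and the ion channels Piezo1 and Piezo2. They were chosen by name, as the probe sets that the platform annotation assigns to each gene, and make up 10 of the 19938 genes with a probe set of their own and 15 of the 21789 probe sets that name 1 gene. Ccn1 and Ccn2 are the genes formerly called Cyr61 and Ctgf. The study hybridised total RNA of the mandible at E18.5 (embryonic day) to Affymetrix arrays, which read the brightness of short probes and summarise it into 1 value per probe set. There was 1 array from wild-type BALB/c mandible and 1 from BALB/c mandible null for both Myf5 and Myod1 (Myf5-/-:MyoD-/-), the factors that commit cells to skeletal muscle. The labels name no treatment, no restriction of the null alleles to a tissue, and no number of embryos per sample. The question behind the series is the role of muscle, and so of its contraction, in forming the lower jaw.

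YAP, the product of Yap1, and TAZ, the product of Wwtr1, carry no DNA-binding domain of their own. They enter the nucleus when cells are stretched or spread, and there they bind TEAD proteins to switch on genes such as Ccn1 and Ccn2, while the kinases of the Hippo pathway phosphorylate them and hold them in the cytoplasm. PIEZO1 and PIEZO2 are channels that open when the membrane is stretched and let calcium and other cations in. PIEZO1 is used by blood vessels and bone, and PIEZO2 by touch and stretch receptors. Arrays measure RNA only, so phosphorylation and the position of YAP and TAZ in the cell are not read.

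Each genotype has 1 array, so the genotypes could not be tested against each other, and every difference compares these 2 arrays with no replicate check. Values are the deposited log2 signals. The floor for low values was the median over probe sets naming 1 gene, which was 6.20 for the wild type and 6.21 for the double knockout. Differences are double knockout minus wild type after any value under the floor was replaced by the floor, and a difference with 1 side under the floor is a bound, written as "at least". Of 19938 genes, 10336 exceeded the floor in 1 or both genotypes and are called measured, and their median difference was 0.10. The only spread these files give is that between probe sets of a gene on the same arrays: the differences of a gene's 2 brightest probe sets disagreed with an SD of 0.22 over 528 genes. That SD holds no variation from animal to animal or from one hybridisation to the next.

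The labels were checked first. Myf5 read 6.31 in wild-type RNA and 4.95, under the floor, in double-knockout RNA, so its floored difference was only a bound of -0.11. Myod1 read 7.14 and 6.49, 1.58-fold lower, and stayed above the floor on both arrays. The labels do not say whether these probe sets lie inside the deleted parts. All 8 skeletal muscle markers, such as the actin Acta1 (12.20 against 5.64) and the myosin Myh8 (11.67 against 4.66), exceeded the floor in wild-type RNA, and 0 of 8 did in double-knockout RNA, with a summed linear signal of 21268 against 272. As markers of the labelled tissue, all 7 osteoblast genes with a probe set were above the floor in both genotypes, as were 5 of 10 cartilage genes, while Matn1, Matn3, Comp, Col9a1 and Cnmd were under it on both. The samples also differed in sex-linked RNA. The Y-linked Eif2s3y read 2.38 in wild-type and 6.55 in double-knockout RNA, and Xist read 10.87 and 10.22; both were named after their values were seen.

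All 10 genes were measured, 9 of them above the floor on both, and Tead4 was above it in the wild type alone. In the double knockout 0 of the 10 were at least 2-fold apart from the wild type, where 3.25% of all measured genes were (0.513% higher and 2.74% lower). Past 1.5-fold there was 1 gene, Tead4, which was lower, against 5.11% of measured genes lower and 3.06% higher. In sign, 6 of the 10 were higher and 4 lower (5 and 5 once differences are centred on the all-gene median, written below as the median set to 0, where Tead2 changed sides), against 66.9% of measured genes higher and 32.2% lower. Their median difference was 0.14, beside 0.10 over all measured genes. By role, among TEAD factors the differences ran from -0.87 to 0.21, and both channels were higher, by 0.30 and 0.55.

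**Figure D1:**
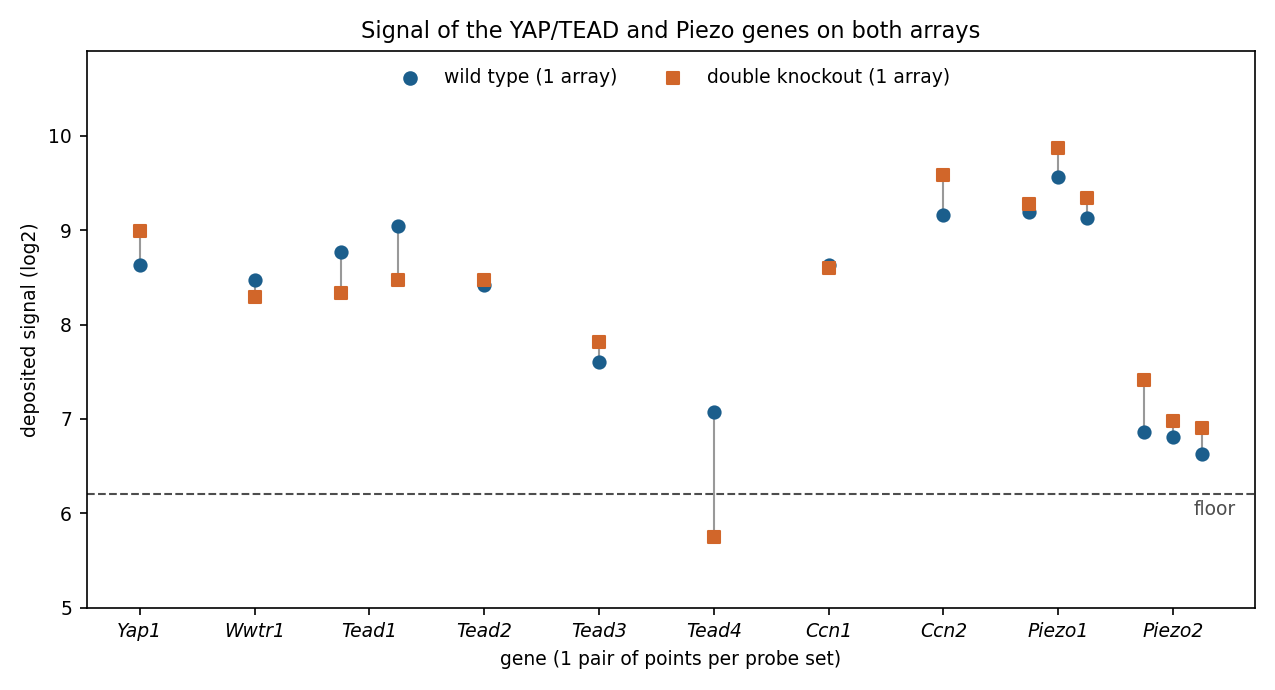
Deposited log2 signal of each probe set of the 10 genes for the wild type (circles) and that of the double knockout (squares), joined by a line per probe set; the dashed line is the wild-type floor of 6.20, which the double-knockout floor of 6.21 nearly overlies. Both Tead1 pairs have the square below the circle, the Tead4 square lies under the floor at 5.75, and the 3 pairs of each Piezo gene all have the square on top.

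TEAD binding sites have a known core, GGAATG, or CATTCC on the other strand, also called the M-CAT box in muscle genes. RefSeq promoter windows (GRCm38.p6, 250 bases before to 50 after a start site) were at hand for 6 of the 10 genes, Yap1, Wwtr1, Tead2, Tead3, Ccn1 and Piezo1, in 9 windows. The window of Ccn1 is shown whole, because Ccn1 is a classical direct TEAD target, with its single TEAD core in capitals. It covers chr3:145649936-145650235, minus strand, and the core begins 103 bases before the start site.

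Ccn1: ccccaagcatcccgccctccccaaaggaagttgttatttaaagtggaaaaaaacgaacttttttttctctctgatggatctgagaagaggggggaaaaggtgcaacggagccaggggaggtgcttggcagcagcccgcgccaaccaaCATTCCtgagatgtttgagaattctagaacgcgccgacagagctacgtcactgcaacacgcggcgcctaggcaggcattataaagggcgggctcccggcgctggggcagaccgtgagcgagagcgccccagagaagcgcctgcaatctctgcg

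The core was also found in windows of both coactivators and of Tead3, and their sites are set beside that of Ccn1 with 10 bases on each side, the core in capitals. All lie on minus strands: Ccn1 at chr3:145650073-145650098, Yap1 at chr9:8004722-8004747, Wwtr1 at chr3:57576031-57576056, and the most upstream Tead3 site at chr17:28350972-28350997.

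Ccn1: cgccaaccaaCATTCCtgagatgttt
Yap1: ggagtctgcaGGAATGtagcgacgcg
Wwtr1: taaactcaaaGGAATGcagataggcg
Tead3: cgacgagcgaGGAATGgggtgcgcgg

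In all, 6 of the 9 windows of these genes held the core on either strand, against 14.7% of the 32851 promoter windows in the table. The windows of Wwtr1 share their site and those of Tead3 overlap, so the 9 are not independent. These letters were not in the windows of Tead2 and Piezo1 or in 1 of the 3 of Tead3. A CArG box, the site of the actin-linked factor SRF, was in 0 of the 9 and in 1.63% of all windows. A match is a description of the letters, and binding was not measured.

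The coactivators differed in opposite directions by small amounts. Yap1 read 8.64 in wild-type and 8.99 in double-knockout RNA, 1.28-fold higher (0.36). Wwtr1 read 8.47 and 8.29, 1.13-fold lower (-0.18). Their differences lay 0.54 apart, more than the probe-set SD of 0.22, while each gene rests on 1 probe set. The Wwtr1 difference taken alone was smaller than that SD. Of all measured genes, 88.1% had a lower difference than Yap1 and 15.5% a lower one than Wwtr1. YAP is known to drive growth of epithelial progenitors. Of 8 epithelial markers, 6 were higher in the double knockout, against 66.9% of all measured genes. The 6 were Epcam (0.87), Cdh1 (0.69), Trp63 (0.49), Krt14 (0.35), Krt15 (0.22) and Krt5 (0.11). The 2 lower markers were Lor (-0.88) and Krt4 (-0.81). The summed linear signal of the 8 was 7066 in wild-type and 7361 in double-knockout RNA, and the part of epithelial cells in the Yap1 value was not tested. In tissue RNA, fewer cells of a type and less RNA per cell cannot be told apart.

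Among the TEAD factors, Tead4 and Tead1 were lower and Tead2 and Tead3 were close to the median of all genes. Tead4, the TEAD gene known from myoblasts and from the outer layer of the early embryo, read 7.07 in wild-type and 5.75 in double-knockout RNA, the latter under the floor. It was therefore at least 1.82-fold lower (a bound of -0.87), and 2.497-fold lower (-1.32) when the deposited values were taken without a floor. Without a floor Tead4 is the 1 gene of the 10 past 2-fold, where 2.16% of all 19938 genes were at least 2-fold lower, and so it is with the floor at percentile 25, where 2.69% were. Of all measured genes, 3.24% had a lower floored difference than Tead4.

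Tead1, which binds the M-CAT boxes of muscle and heart genes, has 2 probe sets and both were lower. The brighter read 9.05 and 8.47, 1.49-fold lower (-0.58), and the other 8.77 and 8.33, 1.36-fold lower (-0.44). They lay within 1 probe-set SD of each other. Of all measured genes, 5.20% had a lower difference than Tead1, which stayed above the floor in both probe sets where the 8 muscle markers were under it.

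Tead2, the TEAD gene prominent in early embryos and neural progenitors, read 8.42 and 8.47. The difference of 0.06 turned to -0.040 with the median set to 0, and either value is smaller than the probe-set SD. Tead3, known from placenta and also expressed widely, read 7.60 and 7.81, 1.16-fold higher (0.21), again within that SD. The lowest and the highest TEAD difference, of Tead4 and Tead3, thus lay at least 1.08 log2 units apart. The muscle markers above moved with Tead1 and Tead4, at a median of -5.19 or lower, and their part in these 2 differences was not tested.

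**Figure D2:**
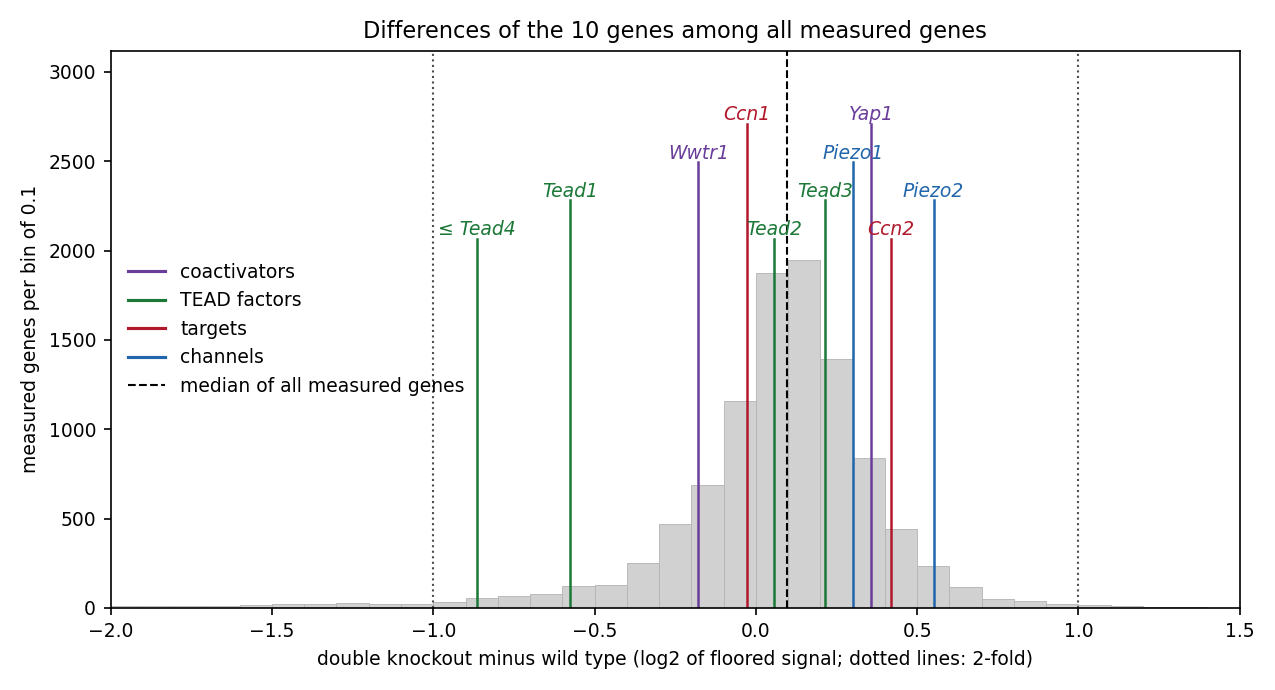
Histogram of the log2 difference, double knockout minus wild type, over the measured genes in bins of 0.1, with a vertical line at each of the 10 genes coloured by role; the dashed line is the median of 0.10, the dotted lines mark 2-fold, and 116 genes under -2 and 20 above 1.5 lie outside the axis. Tead4, drawn at its bound, and Tead1 stand in the left tail, Piezo2 is the farthest right at 0.55, and the other 7 fall inside the bulk between -0.18 and 0.42.

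The secreted targets did not move together. Ccn1, a matrix-bound protein that signals through integrins, read 8.63 and 8.60, a difference of -0.029. Ccn2, the connective tissue growth factor of cartilage and scar tissue, read 9.16 and 9.58, 1.34-fold higher (0.42). The pair lay 0.45 log2 units apart, each with 1 probe set, and 91.7% of measured genes had a lower difference than Ccn2. Cartilage and bone cells make Ccn2. Beside it 4 of 5 measured cartilage markers were higher, where 66.9% of all measured genes were, and Acan was lower (-0.32). The median of the 5 was 0.35, with a summed linear signal over all 10 of 1757 against 2195. All 7 osteoblast markers were higher too (6 with the median set to 0), with a median of 0.40 and sums of 20829 and 24237. The part of these cells in the Ccn2 value was not tested.

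Both channels were slightly higher on the double-knockout array, in each of their 6 probe sets, where 66.9% of all measured genes were higher. The 6 belong to 2 genes read on the same arrays, so they are not independent. The brightest Piezo1 probe set read 9.57 and 9.87, 1.23-fold higher (0.30). The other 2 read 9.13 against 9.34 and 9.19 against 9.28, differences of 0.21 and 0.08. The smallest of these 3 is under the median difference of all genes, 0.10, and turns negative once that median is set to 0. Endothelial cells, which use PIEZO1 to sense flow, gave mixed markers: 6 of 10 were higher (4 with the median set to 0), with a median of 0.07 and sums of 3181 and 3387. Of bone markers, all 7 osteoblast genes with a probe set were higher (6 with the median set to 0), with a median of 0.40. The part of endothelial or bone cells in the Piezo1 value was not tested.

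Piezo2 lay near the floor, and its 3 probe sets differed by unequal amounts. The brightest read 6.87 and 7.42, 1.47-fold higher (0.55), and 96.3% of measured genes had a lower difference. The other 2 read 6.81 against 6.98 and 6.63 against 6.90, differences of 0.17 and 0.27, so that the median over the 3 probe sets gave 0.17 in place of 0.55. All 6 Piezo2 values lay less than 1.5 log2 units above the floor. Of the markers of Merkel cells and sensory nerves, all 8 measured were higher (7 with the median set to 0), against 66.9% of all measured genes. The 8 had a median of 0.42, with sums over all 10 with a probe set of 1463 and 2476. They were led by the simple keratins Krt18 (1.296) and Krt8 (0.93), which glands also make. The defining Merkel cell markers Krt20 and Atoh1 were under the floor on both arrays. Salivary gland markers, with a median of 3.28, were at least 2-fold higher in 8 of 8, against 0.513% of all measured genes. The part of nerve or gland RNA in the Piezo2 value was not tested.

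The cofactors and regulators around these genes were taken from named lists. Vgll proteins bind TEAD factors at the same surface as YAP and TAZ. Vgll2, the skeletal muscle member, read 7.47 and 5.65 and was at least 2.40-fold lower. It was the 1 of 3 measured Vgll genes past 2-fold, where 2.74% of all measured genes were at least 2-fold lower. Vgll3 read 8.30 and 7.66, 1.56-fold lower (-0.64). Vgll4, a repressor of TEAD activity, read 9.42 and 10.001, 1.495-fold higher (0.58), and Vgll1 was under the floor on both arrays. The 3 measured Vgll genes therefore ran from -1.26 to 0.58, with a median of -0.64. The part of the lost muscle RNA in the Vgll2 and Vgll3 values was not tested.

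The Hippo kinases and their upstream regulators stayed close to the median of all genes. Of 21 measured members, 0 were at least 2-fold or 1.5-fold apart, where 3.25% of all measured genes were at least 2-fold apart. Past 1.5-fold, 3.06% of all measured genes were higher and 5.11% lower. In sign, 16 were higher and 5 lower (10 and 11 with the median set to 0), against 66.9% and 32.2% of all measured genes. The median difference of the 21 was 0.10. By floored difference as deposited, the widest were the kinase adaptors Mob1a (0.29) and Mob1b (-0.25), the scaffold Wwc2 (0.28) and the LIM protein Ajuba (0.26), while Wwc1 has only a bound (at least 0.23) and may differ by more.

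Of 20 other measured YAP/TEAD target genes, 0 were at least 2-fold apart, against 3.25% of all measured genes. In sign, 16 were higher and 4 lower, against 66.9% and 32.2% of all measured genes. The signs were 9 and 11 with the median set to 0, and 13 and 7 after quantile normalisation. The median of the 20 was 0.07. The widest floored differences were in the guanine exchange factor Dock5 (6.998 against 7.79, 1.73-fold higher), the forkhead factor Foxf2 (1.61-fold higher), the receptor kinase Axl (1.33-fold lower) and the GTPase regulator Asap1 (1.26-fold higher), while Edn1 has only a bound (at least 0.040) and may differ by more. Ankrd1, a target that striated muscle makes in quantity, was under the floor on both arrays, with deposited values of 6.16 and 3.95, and was named after its values were seen. Lats2, Amotl2 and Ptpn14 belong to both the regulator and the target list.

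The CCN family outside the 10 genes held the largest difference among the measured genes of the pathway lists, each read at its brightest probe set. Ccn3 read 8.75 and 6.74, 4.02-fold lower, and neither value was under the floor. Ccn4, a Wnt target of bone, differed by 0.26 and Ccn5 by -0.12, and Ccn6 was under the floor on both arrays. Thus 1 of 3 measured members was at least 2-fold lower, where 2.74% of all measured genes were. Ccn1 and Ccn2 differed from Ccn3 by 1.98 and 2.43 log2 units. Beside Ccn3, 6 of 8 measured tendon and connective tissue markers were lower, against 32.2% of all measured genes. At least 2-fold lower were 3 of the 8, against the same 2.74%. The sums over all 9 were 9948 and 8585, and the part of tendon or muscle RNA in the Ccn3 value was not tested.

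**Figure D3:**
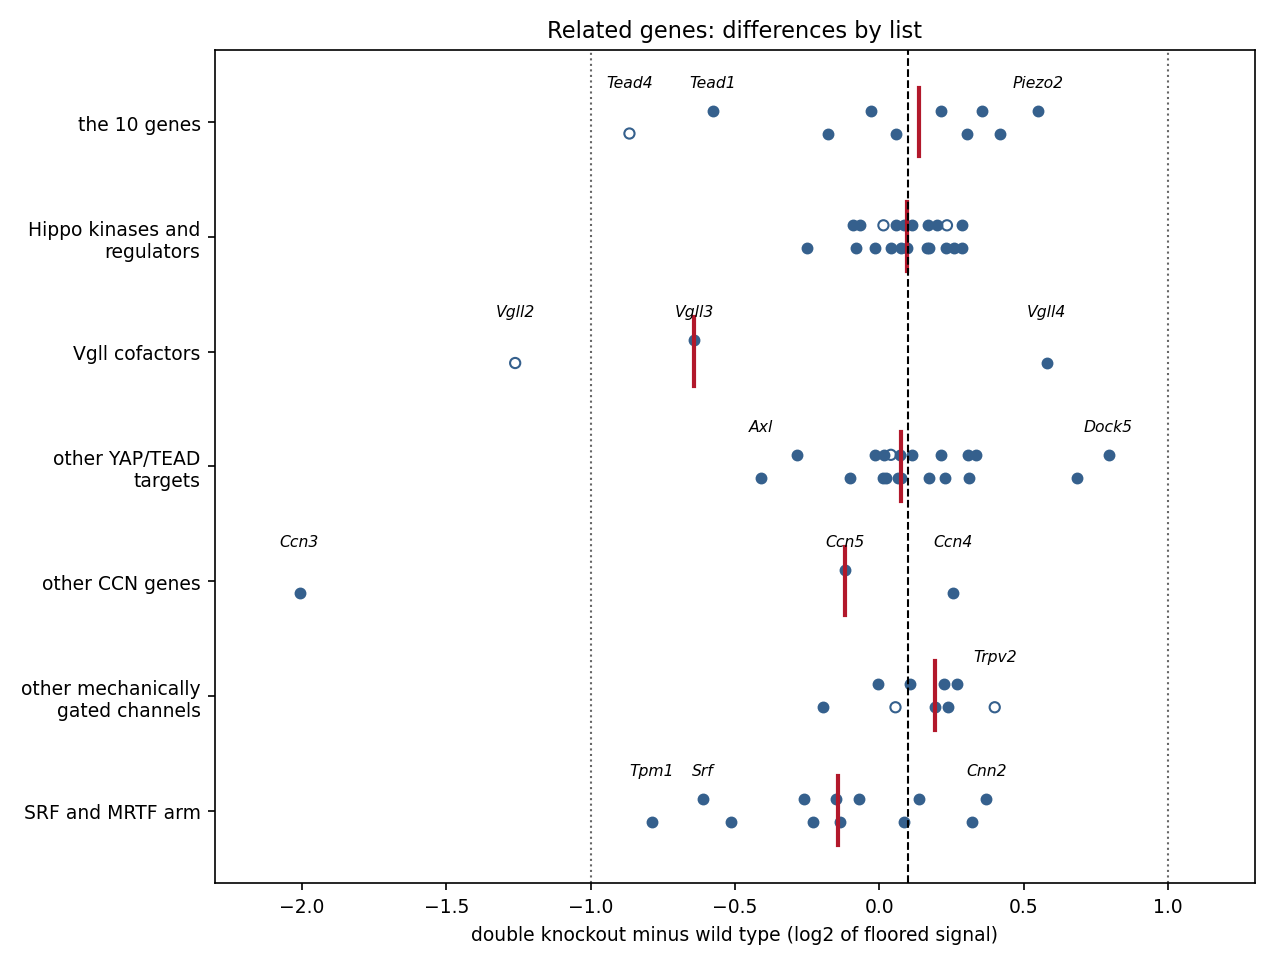
Log2 difference, double knockout minus wild type, of each measured gene in the group of 10 and in 6 related lists; filled points have both values above the floor, open points are bounds, red bars are list medians, the dashed line is the median of all measured genes (0.10) and the dotted lines mark 2-fold. Vgll2 and Ccn3 are the points beyond the left dotted line, and the Hippo list lies between -0.25 and 0.29.

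Other stretch-related channels gave no difference of 2-fold or 1.5-fold, where 3.25% of all measured genes were at least 2-fold apart. At 1.5-fold, 3.06% of all measured genes were higher and 5.11% lower. Of 17 with a probe set, 9 were measured, 7 higher and 2 lower (6 and 3 with the median set to 0), against 66.9% and 32.2% of all measured genes. The median of the 9 was 0.19. The widest floored differences were in Trpv2 (at least 1.32-fold higher), Trpv4, a channel of cartilage (0.27), Trpm7 (0.24) and Tmem63a (0.22). Kcnk2 has only a bound (at least 0.056) and may differ by more, with a deposited difference of 0.42. The hair-cell channel genes Tmc1 and Tmc2 were under the floor on both arrays.

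SRF and its MRTF coactivators are the other route from actin tension to transcription. Of 12 measured genes of that arm, 0 were at least 2-fold apart, against 3.25% of all measured genes. In sign, 4 were higher and 8 lower (3 and 9 with the median set to 0), against 66.9% and 32.2% of all measured genes. The median of the 12 was -0.14. With the median over probe sets in place of the brightest, 1 gene, Filip1l, was past 2-fold lower, with the double knockout under the floor. The tropomyosin Tpm1, a contractile protein shared with muscle, was 1.73-fold lower (11.22 against 10.43) and Srf itself 1.53-fold lower (8.96 against 8.35). The adhesion protein Zyx was 1.43-fold lower and the calponin Cnn2 1.29-fold higher. All 8 skeletal muscle markers were lower, at a median of -5.19 or lower, and their part in the values of this arm was not tested. Of 7 measured smooth muscle markers, which share Cnn1 and Tagln with this list, 5 were lower and 2 higher (6 and 1 with the median set to 0). The sums over all 8 were 3541 and 2360, and most of each came from Acta2, by far the brightest (11.22 against 10.28). Of the others, Actg2 was lower (-0.73) and Mylk higher (0.58), while Myh11, Tagln and Cnn1 differed by less than the probe-set SD.

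**Figure D4:**
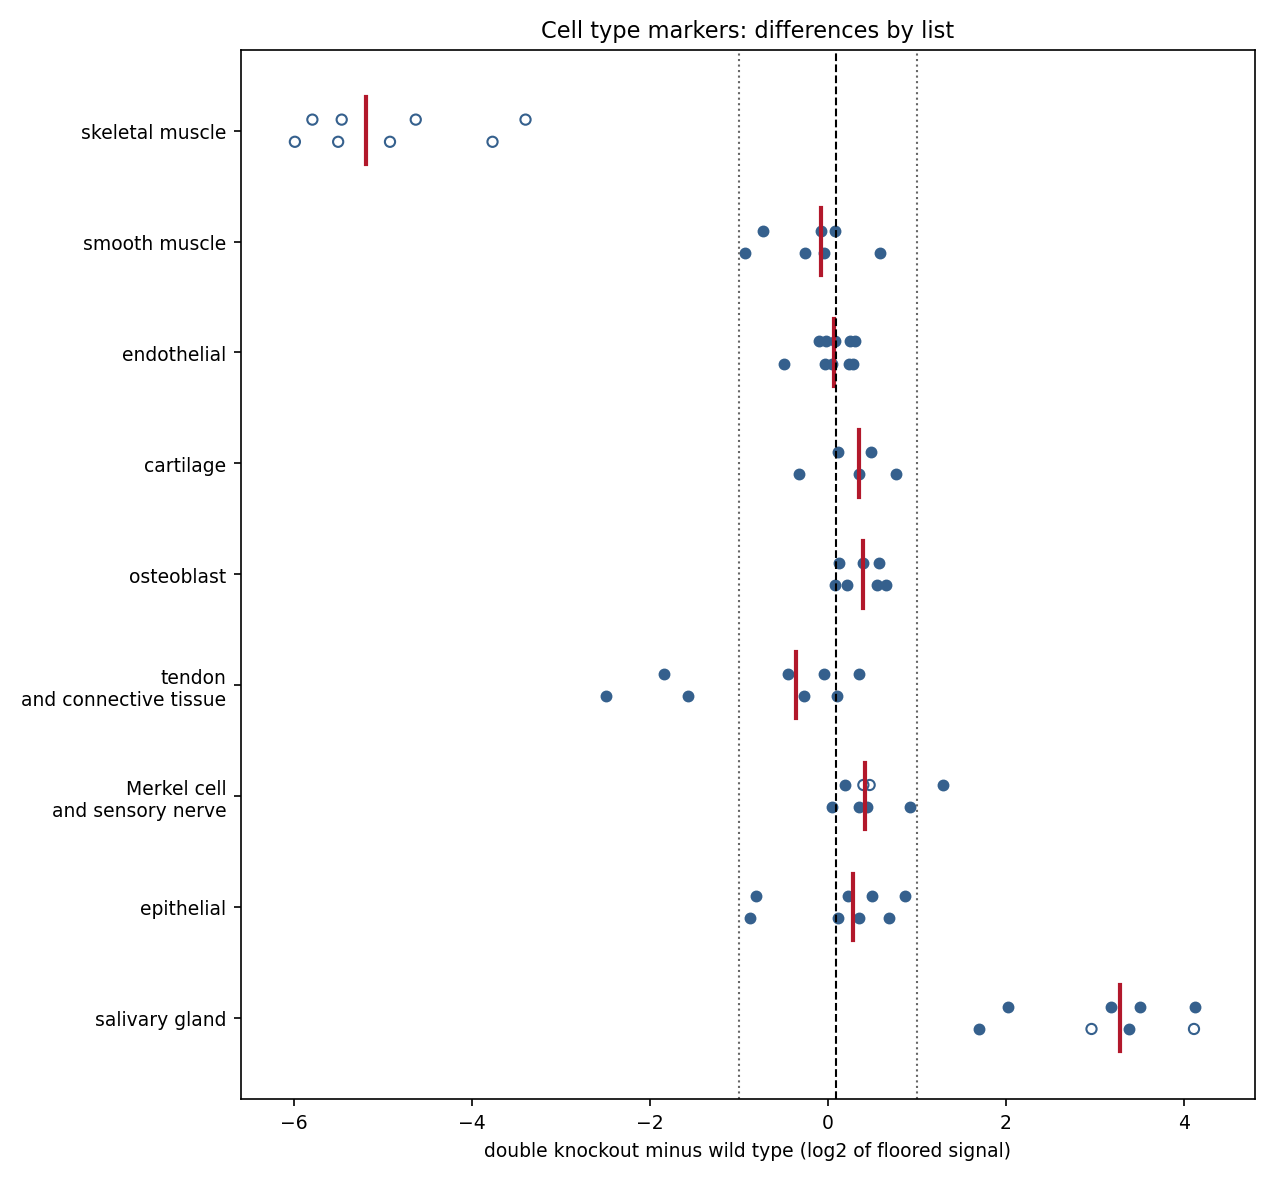
Log2 difference, double knockout minus wild type, of the measured markers of 9 cell types; symbols, red medians and lines are as in the plot of related lists. Skeletal muscle markers, all bounds, lie between -5.99 and -3.40 and salivary gland markers between 1.70 and 4.12, with 3 of 8 tendon markers also beyond 2-fold lower.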

How the data were processed

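Total RNA was extracted with Trizol and biotin-labelled cRNA was made for Affymetrix arrays, as the labels' protocols state. The values the authors deposited are log2 signals of 35557 probe sets for both samples; the base was read from the values, which ended at 13.35 and 13.34. MAS5 is named, with no version, per the submitters' processing notes; it usually gives linear values, so how these logarithms were summarised is not settled. How background was corrected, whether arrays were normalized to each other, and the genome build are not given in the sources used here. The arrays were compared as deposited; their medians were 5.48 and 5.45, and 1626 probe sets held the same value on both. Precision is limited by the number of arrays and by the spread between probe sets of a gene.

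Genes came from GEO's platform annotation: 21789 probe sets named 1 gene, 1621 several and 12147 none. A RefSeq table held 19856 of the 19938 genes. A gene was represented by its brightest probe set, with the floor at percentile 50 of the annotated probe sets and a threshold of 2-fold. The text names the 10 genes, the 4 widest members of each pathway list, all Vgll and CCN genes, and label and marker genes. It also names Lats2, Amotl2 and Ptpn14, which are shared between lists. Wwc1, Edn1, Kcnk2, Tmc1, Tmc2, Filip1l and Ankrd1 were named after their values were seen. Python 3.11.15, numpy 2.4.6 and pandas 2.3.3 were used, and the steps were tested on simulated data. The 10 genes and all lists were chosen with earlier results of these data known.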

Additional observations from a re-analysis of the deposited data

How the results depend on the processing

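No paired analysis was possible because each genotype has 1 array. Alternatives were centring of the differences on the median of all measured genes, quantile normalisation, floors at percentiles 25 and 75, no floor, the median over probe sets, and thresholds of 1.5-fold and 3-fold. The number of the 10 genes at least 2-fold apart went from 0 to 1, Tead4, with the floor at percentile 25 (2.69% of genes at least 2-fold lower) and without a floor. It was also 1 at 1.5-fold. The count of other YAP/TEAD targets was 1 with the floor at percentile 25 and without a floor, where Ankrd1 enters. With the floor at percentile 75, Tead4 and Piezo2 were not measured, 0 Vgll genes passed 2-fold, the Vgll median was 0.0085 and the other CCN median was -0.38. Without a floor the Vgll median was -0.22. With the median over probe sets, 1 gene of the SRF arm, Filip1l, passed 2-fold, as a bound: its 2 probe sets read 8.06 against 7.80 and 6.43 against 4.34, the last under the floor. Under that setting Piezo2 differed by 0.17. Of the other 76 counts and medians under an alternative, each stayed within 1.5 times or within the probe-set SD. Tead2 was the 1 gene of the 10 that changed sign, under centring on the median. Genes near the floor, Tead4 above all, have the least signal behind their differences.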
